A study of Homo sapiens with 6 samples.

Results

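The miR-15/16 seed family and its relative miR-503 were examined in HuCCT1 cells with and without TGF-β. The 7 members were taken by name from the 2555 human miRNA probes of each array: hsa-miR-15a-5p, hsa-miR-15b-5p, hsa-miR-16-5p, hsa-miR-195-5p, hsa-miR-424-5p, hsa-miR-497-5p and hsa-miR-503-5p, written without the species prefix from here on. HuCCT1 is an established human cholangiocarcinoma (CCA) line, and TGF-β is a cytokine that drives epithelial-mesenchymal transition (EMT). The control group (0 ng/ml TGF-β) and the TGF-β group (10 ng/ml) each held 3 arrays, all from cells harvested at 72 h, with total RNA of 1 sample labelled on each array. Both groups were of the same line, and no source used here says whether the replicates came from separate cultures, so p-values measure the spread between these samples only. The arrays report fluorescence brightness per spot, and their number limits the precision of every value below.

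A miRNA pairs with its target mRNAs mainly through its seed, bases 2 to 8 counted from the 5′ end, and miRNAs with the same seed are treated as a family because they can share targets. The miR-15/16 family is best known for holding back the cell cycle and for repressing the survival gene BCL2, and loss of its cluster on chromosome 13 is frequent in chronic lymphocytic leukaemia. Its members come in pairs from short clusters, so the members of a pair can be made from a common transcript.

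The mature sequences show what the members have in common and where they part. All 7 members were matched by name in the RefSeq table (GRCh38.p14). In the following lines the capitals mark bases 2 to 8.
miR-15a-5p: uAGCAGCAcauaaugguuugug
miR-15b-5p: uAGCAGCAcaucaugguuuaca
miR-16-5p: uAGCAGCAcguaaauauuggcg
miR-195-5p: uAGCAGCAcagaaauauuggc
miR-497-5p: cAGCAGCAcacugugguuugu
miR-424-5p: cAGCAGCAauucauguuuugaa
miR-503-5p: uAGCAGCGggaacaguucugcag

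The first 6 of these shared one seed, and miR-503-5p differed from them at the last base of it. Of 2370 mature miRNAs in the table, 7 carried the seed of miR-16-5p (0.295%). The only one among them that is not a member was miR-6838-5p, shown here because it completes the seed group.
miR-6838-5p: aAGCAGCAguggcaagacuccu
The related miR-103a-3p and miR-107 hold the same 7 letters but start with them, so that the capitals below mark bases 1 to 7 and their seed is moved by 1 base.
miR-103a-3p: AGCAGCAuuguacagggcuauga
miR-107: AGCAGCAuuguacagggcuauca

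Over the whole sequence, seed included, the members fell into closer and more distant pairs. Counted position by position from the 5′ end, miR-16-5p and miR-195-5p were identical at 19 of 21 positions, miR-15a-5p and miR-15b-5p at 18 of 22, and miR-15a-5p and miR-497-5p at 17 of 21. The lowest value of the family was 10 of 21, between miR-497-5p and miR-503-5p. How far such closely related RNAs bind each other's probes on these arrays was not tested.

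The genes lie in 4 clusters. Mature miR-15a-5p maps to chr13:50049167-50049188 on the minus strand, and 57 bases separate its precursor from that of miR-16-1, both inside the span of the long noncoding RNA gene DLEU2. Mature miR-15b-5p maps to chr3:160404607-160404628 on the plus strand, with 59 bases between its precursor and that of miR-16-2, inside the span of SMC4, which encodes a condensin subunit. Because mature miR-16-5p is the same from both precursors (chr13:50049027-50049048 and chr3:160404754-160404775), its probe cannot tell them apart. Mature miR-195-5p (chr17:7017667-7017687) and miR-497-5p (chr17:7017979-7017999) lie on the minus strand inside MIR497HG. Mature miR-424-5p (chrX:134546680-134546701) and miR-503-5p (chrX:134546371-134546393) are neighbours on the minus strand of the X chromosome, where the precursor of miR-503 lies within MIR503HG.

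The 6 arrays resembled each other closely, with Pearson correlations of 0.945 to 0.985 across miRNAs on the log2 scale. Detection on an array required a brightness over the mean of its 229 blank spots by more than 2 SD of these spots, and distances from that mean are given in the same SD. That SD ran from 1.78 brightness units on control array 3 to 7.63 on TGF-β array 1. The same distance in SD is therefore not the same brightness on every array. Between 327 and 464 human probes were detected per array. Chip 1 carried every control array together with TGF-β array 1, and chip 2 carried the other TGF-β arrays, as the names of the scanner outputs show. Of 5 epithelial marker miRNAs (the miR-200 family), 4 were detected on all arrays and miR-429 on 5 arrays. Of 11 markers of hepatocytes, blood, endothelium, stroma, muscle and neurons, 10 were not detected on any array, the liver marker miR-122-5p among them, and miR-223-3p was detected on 1.

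Of the 7 members, 4 were detected on all 6 arrays: miR-15a-5p, miR-15b-5p, miR-16-5p and miR-195-5p. These are the members of both miR-15/16 clusters and 1 of the 2 members from the miR-195/miR-497 cluster. The probe of miR-16-5p stood 85.0 to 181.8 SD above the blank spots, and that of miR-15b-5p stood 18.3 to 52.7 SD above them. The probe of miR-15a-5p was nearer to background, at 4.31 to 11.9 SD, and that of miR-195-5p nearest, at 2.48 to 9.52 SD. Neither miR-497-5p nor miR-503-5p was detected on any array, and their values ran from -3.50 to -1.13 SD, all below the mean of the blank spots. MiR-195-5p thus had a detected probe on arrays where the probe of its cluster partner miR-497-5p was not detected. MiR-16-5p, whose probe stood much further above background, is identical to miR-195-5p at 19 of 21 positions. Whether miR-16-5p contributed to the signal at the miR-195-5p probe was not tested. These values therefore do not show that miR-195-5p was present without miR-497-5p.

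**Figure D1:**
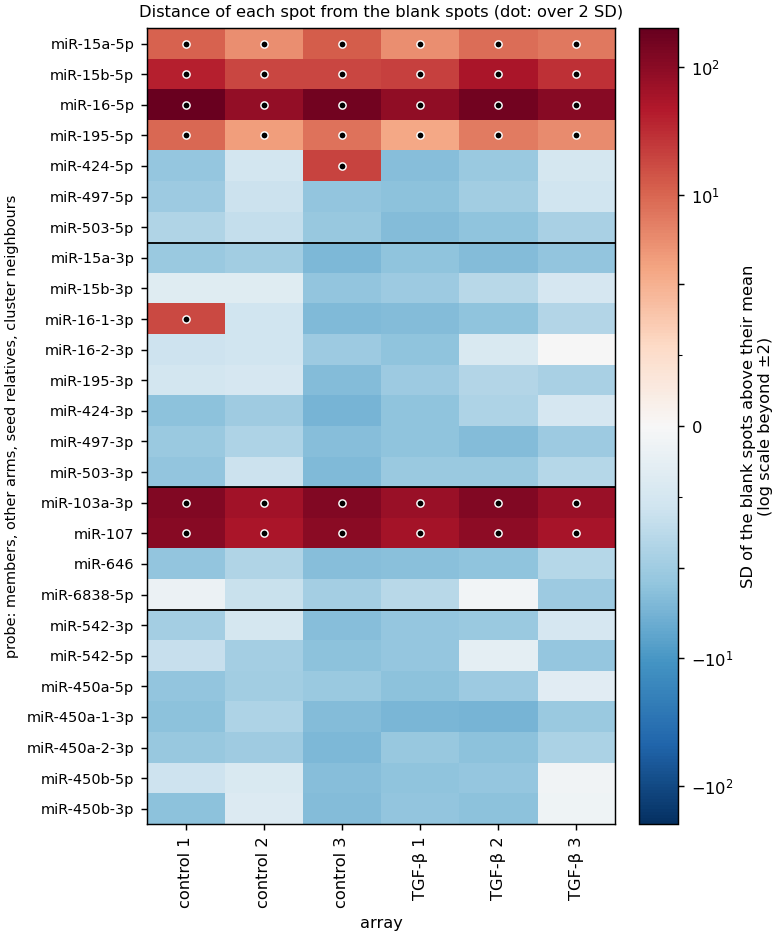
Distance of each spot from the blank spots of its array, in SD of the blank spots (colour, log scale beyond 2 SD), for the members, the other arms of their precursors, the seed relatives and the neighbours of the miR-424/miR-503 cluster, on 6 arrays. Dots mark detection; 4 members and 2 seed relatives carry a dot on all arrays, and miR-424-5p and miR-16-1-3p on 1 array each.

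The probe of miR-424-5p behaved unlike the others. It was detected on control array 3 alone, at 19.5 SD above the blank spots, and lay below their mean on each of the other 5 arrays, at -3.32 SD on the lowest. Its normalized signal on control array 3 was 20.3, and on each of the other arrays it was at the lowest value that counted as detected there, 1.83 to 4.31. With 1 of 3 control arrays above background, miR-424-5p was not among the probes compared between the groups, and no fold is given. Only looser filters among the alternatives admitted it. Such spots were rare: of the 2555 human probes, 4 (0.157%) exceeded 10 SD on a single array while undetected on all others. Besides miR-424-5p they were miR-4480 on control array 3, miR-16-1-3p on control array 1 and miR-623 on TGF-β array 2. These names were looked up after the values were seen. The limit of 10 SD is a smaller brightness on control arrays 1 and 3 (SD 1.79 and 1.78) than on TGF-β array 1 (7.63). In brightness, miR-424-5p was 64.1 on control array 3 and 65.4 on TGF-β array 2, where the blank spots had a mean of 76.2. Among the 5 spots next to miR-424-5p on control array 3, 1 was detected, that of miR-423-3p at 5.79 SD, which was detected on all other arrays as well. The local background around the spot was 43.8 brightness units, against a median of 19.2 over that array. The cause of the single bright spot was not tested.

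The other arms of the precursors and the cluster neighbours gave little signal. Of the 8 other arms, 7 were not detected on any array, and miR-16-1-3p, cut from the miR-16-1 precursor, was detected on control array 1 alone, at 17.1 SD. Beside that spot lay the probe of miR-1285-3p, at 46.6 SD there and between 13.7 and 36.7 SD on the other arrays. None of the 7 neighbours of the miR-424/miR-503 cluster (the arms of miR-542, miR-450a and miR-450b) was detected, and their highest value was -0.20 SD. The seed relative miR-6838-5p and miR-646, whose seed differs by 1 base, were not detected either, whereas miR-103a-3p and miR-107 were detected on all 6 arrays. Of these lists only the last pair could be compared between the groups.

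For the 4 detected members, signals were taken above the mean of the blank spots and set on a common scale, with a median of 25 over the 292 probes that every array detected. Signals are given on this linear scale and are compared between arrays for the same probe only. A probe counted as expressed if every array of either group detected it, and the 323 such probes were compared with limma on the log2 scale. None of the 4 members passed an adjusted p of 0.05, and neither did any other expressed probe (0 of 323, or 0%). None of the 4 had an unadjusted p under 0.05, against 21 of all expressed probes (6.5%, with 4.64% higher with TGF-β).

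MiR-15b-5p showed the largest difference of the 4. In array order, its signal without TGF-β was 37.7, 39.5 and 19.0, and with TGF-β it was 38.8, 55.0 and 54.8. TGF-β array 1 lay between control arrays 1 and 2, control array 3 lay far below the other controls, and the groups overlapped. The means were 32.1 ± 11.3 (SD, n = 3) without and 49.5 ± 9.35 (SD, n = 3) with TGF-β, a ratio of 1.55. The log2 difference was 0.68 (standard error 0.31, 95% confidence interval -0.035 to 1.40, limma adjusted p = 0.72). A 2-sided exact permutation test gave p = 0.20, and 0.10 is the lowest value this design can reach. Taken by replicate number, the TGF-β array was higher in 3 of 3 pairs, by 0.040, 0.48 and 1.53 on the log2 scale (limma adjusted p = 0.46 with the replicate number as a block). What the replicate numbers mark is not stated, so the pairs are an assumption. The other detected members had mixed signs: the TGF-β array was higher in 1 of 3 pairs for miR-15a-5p and in 2 of 3 for miR-16-5p and miR-195-5p. How many of all expressed probes had 1 sign in all pairs was not counted, so this does not set miR-15b-5p apart. MiR-15b-5p was the 1 member of 4 with a ratio above 1.5, the threshold used in the study, a ratio that 4.64% of all expressed probes exceeded. None of the 4 had a ratio below 0.67, against 2.79%. The log2 difference stood at the 97.8th percentile of the expressed probes.

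The difference in miR-15b-5p rested on few arrays. Without control array 3 the ratio was 1.28 and the log2 difference 0.34 (limma adjusted p = 0.999). The higher signals were those of chip 2, with a mean of 54.9, whereas TGF-β array 1, on the chip of the controls, had 38.8. With only the arrays of chip 1 the ratio was 1.15 and the log2 difference 0.27. With chip as a fixed block it was 0.35. Both compare TGF-β array 1 alone with the controls and carry no replicate of the treatment, so no p is given for them. No control array was on chip 2, so chip and treatment cannot be told apart for TGF-β arrays 2 and 3. The authors' own normalization sets the median of each array's listed miRNAs to 25, and in it miR-15b-5p was 99.5, 57.5 and 34.5 without TGF-β and 51.9, 121.8 and 75.1 with it, a ratio of 1.30.

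MiR-16-5p, which both miR-15/16 clusters can supply, had nearly equal means in the groups. The 3 controls read 166.1, 182.8 and 160.5, the 3 treated samples 166.3, 160.9 and 202.5, so that only TGF-β array 3 lay outside the range of the controls. The means of 169.8 ± 11.6 (SD, n = 3) and 176.6 ± 22.6 (SD, n = 3) gave a ratio of 1.04. The log2 difference was 0.051 (standard error 0.19, 95% confidence interval -0.38 to 0.48, limma adjusted p = 0.99), and its sign depended on the scaling: it was -0.16 when each array was scaled on its own detected probes and -0.21 in the authors' normalized values.

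MiR-15a-5p, from the cluster of miR-16-1, had signals of 9.89, 9.48 and 12.4 in untreated cells, compared with 7.92, 8.99 and 12.9 after TGF-β. TGF-β arrays 1 and 2 lay below all controls and TGF-β array 3 above them. The ratio of means was 0.937, with a log2 difference of -0.11 (standard error 0.24, 95% confidence interval -0.66 to 0.43, limma adjusted p = 0.99). Leaving out control array 3 gave 0.0057 and leaving out TGF-β array 1 gave 0.019, and with only the arrays of chip 1 the ratio was 0.710.

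MiR-195-5p measured 8.70, 6.71 and 8.11 at 0 ng/ml and 4.56, 6.77 and 8.87 at 10 ng/ml. TGF-β array 1 was the lowest of the 6 and TGF-β array 3 the highest, with the controls between them. The ratio of means was 0.859 and the log2 difference -0.26 (standard error 0.27, 95% confidence interval -0.88 to 0.35, limma adjusted p = 0.99). Without TGF-β array 1 the log2 difference was -0.021, and without TGF-β array 3 it was -0.53 (limma adjusted p = 0.43). On chip 1, where TGF-β array 1 stands alone against the controls, the ratio was 0.553.

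**Figure D2:**
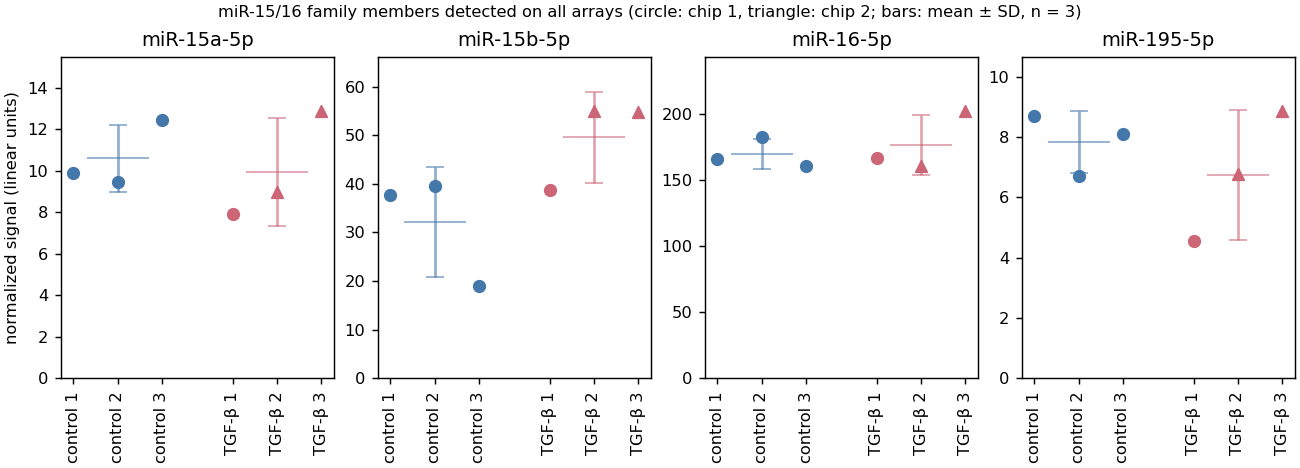
Normalized signal (linear units) of the 4 members detected on all arrays, for 3 control (blue) and 3 TGF-β (red) arrays; circles are chip 1 and triangles chip 2, horizontal bars the means and vertical bars the SD (n = 3). The groups overlap in all 4 panels; for miR-15b-5p control array 3 is at 19.0 and TGF-β arrays 2 and 3 are at 55.0 and 54.8.

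Over the 4 tested members the median log2 difference was -0.032, beside 0.013 over all 323 expressed probes (range -0.91 to 1.18). The differences of the 4 ran from -0.26 to 0.68, and those of miR-15a-5p and miR-16-5p lay between the quartiles of all expressed probes, -0.13 and 0.16. By percentile among the expressed probes, miR-195-5p stood at 14.2, miR-15a-5p at 28.5 and miR-16-5p at 58.8. The groups overlapped for each of the 4, whereas they did not for 9.91% of the expressed probes (7.12% higher and 2.79% lower with TGF-β). The relatives miR-103a-3p and miR-107, which are made from introns of the pantothenate kinase genes, gave similar values on both sides. MiR-103a-3p was 123.6 ± 14.8 (SD, n = 3) without and 135.2 ± 10.3 (SD, n = 3) with TGF-β (log2 difference 0.13, standard error 0.19, limma adjusted p = 0.99). MiR-107 was 103.7 ± 10.8 (SD, n = 3) and 107.3 ± 5.86 (SD, n = 3), a log2 difference of 0.053 (standard error 0.18, limma adjusted p = 0.99). The sign of both depended on the scaling, at -0.082 and -0.16 when arrays were scaled on the probes detected on each.

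**Figure D3:**
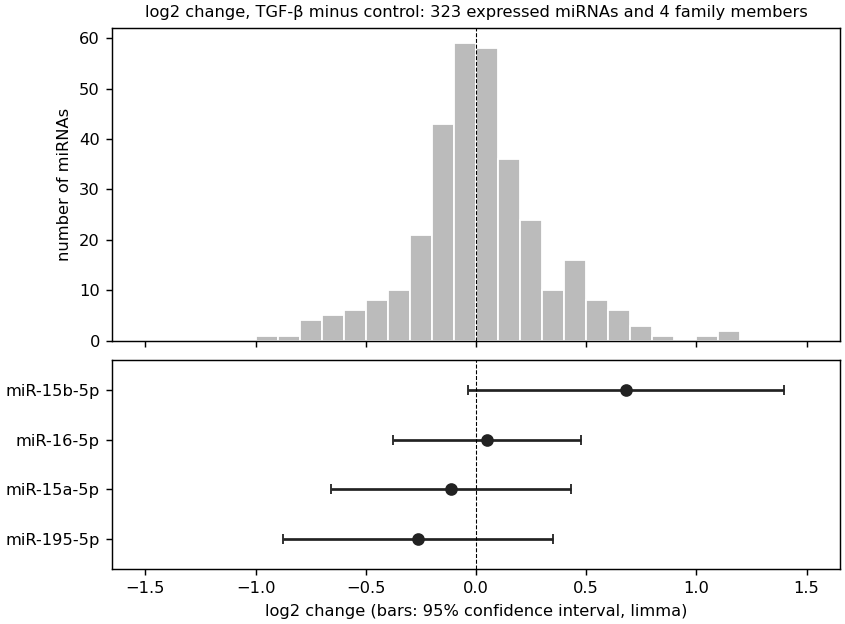
Top, number of the 323 expressed miRNAs by log2 difference (TGF-β minus control, bins of 0.1); bottom, the log2 differences of the 4 detected members with 95% confidence intervals from limma. All 4 intervals include 0, and that of miR-15b-5p runs from -0.035 to 1.40.

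Differences between members within an array do not depend on the factor by which it was scaled. The log2 signal of miR-15b-5p minus that of miR-16-5p was -2.14, -2.21 and -3.08 in the controls, against -2.10, -1.55 and -1.88 in treated cells. These values compare an array with another and do not measure which miRNA is more abundant, since probes differ in brightness. The groups did not overlap, although TGF-β array 1 exceeded control array 1 by little. The shift between the group means was 0.63 (2-sided exact permutation test, p = 0.10, the smallest possible, and 0.20 after Benjamini-Hochberg adjustment over the 6 pairs).

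The values for miR-15b-5p against the other detected members lay on the same side, without passing adjustment. Against miR-15a-5p the difference was 1.53 ± 0.80 (SD, n = 3) without TGF-β and 2.33 ± 0.27 (SD, n = 3) with it, a shift of 0.80. Against miR-195-5p it was 1.97 ± 0.67 (SD, n = 3) and 2.91 ± 0.25 (SD, n = 3), a shift of 0.95. In both the groups did not overlap, with the same exact permutation p of 0.10 and adjusted p of 0.20. The groups thus did not overlap in 3 of 6 pairs, against 10.6% of the 42486 pairs of probes detected on all arrays, and the 3 pairs share the miR-15b-5p signal and are not independent. Without control array 3 the shifts of miR-15b-5p against miR-16-5p, miR-15a-5p and miR-195-5p were 0.33, 0.34 and 0.58. With only the arrays of chip 1, where TGF-β array 1 stands alone against the controls, they were 0.37, 0.76 and 1.12, in the same order. On that array miR-15a-5p and miR-195-5p were near background, at 4.31 and 2.48 SD above the blank spots. With normexp background correction the shifts were 0.24, 0.55 and 0.60.

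The pairs without miR-15b-5p overlapped between the groups. Their shifts were -0.17 for miR-15a-5p minus miR-16-5p (exact permutation p = 0.50), 0.15 for miR-15a-5p minus miR-195-5p (exact permutation p = 0.50) and 0.31 for miR-16-5p minus miR-195-5p (exact permutation p = 0.30). The shift was thus 0.63 for the pair of the chromosome 3 cluster and -0.17 for that of the chromosome 13 cluster, where the miR-16-5p probe is common to both. Single arrays moved the shifts of these pairs by more than 1.5 times. That of miR-15a-5p minus miR-16-5p was -0.0057 without control array 3, -0.058 without TGF-β array 1, -0.27 without TGF-β array 3 and -0.30 without control array 2. That of miR-15a-5p minus miR-195-5p was 0.024 without control array 1, 0.041 without TGF-β array 1, 0.24 without TGF-β array 2 and 0.24 without control array 3. That of miR-16-5p minus miR-195-5p was 0.098 without TGF-β array 1 and 0.48 without control array 2. In the difference between the shifts of the 2 clusters the miR-16-5p signal cancels. That difference is the shift of miR-15b-5p minus miR-15a-5p given above, 0.80 (2-sided exact permutation test, p = 0.10, adjusted p = 0.20). It is no separate result.

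**Figure D4:**
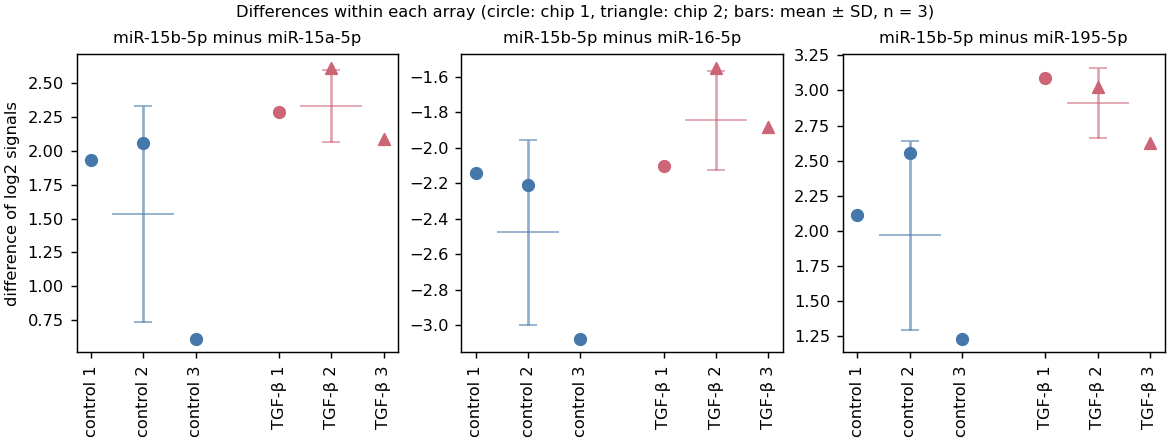
Difference of log2 signals between miR-15b-5p and each other detected member on the same array, for 3 control (blue) and 3 TGF-β (red) arrays; circles are chip 1 and triangles chip 2, with mean and SD (n = 3). All TGF-β arrays lie above all control arrays in each panel, and control array 3 lies lowest.

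The mean of the centred log2 signals of the 4 members spanned a wider range among the TGF-β arrays than among the controls. It was 0.042, -0.016 and -0.16 without TGF-β, and -0.26, 0.042 and 0.35 with it, with TGF-β array 1 the lowest and TGF-β array 3 the highest of the 6. Among single members, TGF-β array 1 was lowest for miR-15a-5p (7.92) and miR-195-5p (4.56). Control array 3 was lowest for miR-15b-5p (19.0) and miR-16-5p (160.5). How many expressed probes had a wider range with TGF-β was not counted, so the spread does not set the members apart. The controls were all on chip 1 and the TGF-β arrays on both chips, so treatment and chip cannot be told apart in this spread. On TGF-β array 1, miR-195-5p and miR-15a-5p were near background, at 2.48 and 4.31 SD above the blank spots. Of the 288 other expressed probes detected on all arrays, the signals most like this pattern over the 6 arrays were those of miR-138-5p (Pearson r = 0.98), miR-26b-5p (r = 0.96) and miR-30d-5p (r = 0.94). These correlations describe 6 arrays that share their scaling. The 3 probes had log2 differences of 0.11, 0.33 and 0.045 (limma adjusted p = 0.99 each), and miR-138-5p was 18.9 on TGF-β array 1 and 36.1 on TGF-β array 3.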

How the data were processed

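MiRNA arrays (3D-Gene Human miRNA Oligo chip, Cy5 label) of 6 samples were used. The authors deposited the spot brightness as an unnormalized linear intensity from the 3D-Gene Extraction software, and a table of intensity values whose median was set to 25 per array; a genome build is not given in the sources used here. From the brightness, the mean of 229 blank spots was subtracted, a factor per array brought the median of the 292 probes detected throughout to 25, and undetected signals took the value of the dimmest detected probe. Spots failing a flag (0 to 2 human probes per array) were missing. Groups were compared with limma 3.58.1 in R 4.3.3 over 323 expressed probes with Benjamini-Hochberg adjustment, and single values with 2-sided exact permutation tests. The limma step was tested on simulated data. Named were the members, the other arms, seed relatives, cluster neighbours and the 3 probes most like the members' mean pattern. The members and lists were chosen with earlier results of these data known. Neither the labels nor the methods say what replicate numbers mark. Deviations of same-numbered arrays correlated by 0.12, 0.24 and 0.33 over 322 probes, which was taken as pairing. Arrays of different numbers were not compared in this way, so these values do not show that the numbers mark pairs. Alternatives covered background, scaling, filters, detection at 3 SD, tests, blocks, chip and left-out arrays. MiR-1-3p of the muscle markers was not found under that name.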

Additional observations from a re-analysis of the deposited data

How the results depend on the processing

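With the replicate number as a block (pairing), the fit left the log2 difference of miR-15b-5p at 0.68 (limma adjusted p = 0.46) and changed no call. No member passed the adjusted p in any of the 22 alternatives, this one included. The log2 difference of miR-15b-5p was above 0 in all 22, from 0.27 (chip 1) to 1.32 (no scaling). The sign of miR-16-5p turned to -0.21 in the deposited normalized values, to -0.16 for scaling on each array's detected probes, and turned with the 75th percentile (-0.063), quantile normalization (-0.062), chip as a fixed block (-0.028) and chip 1 (-0.10). With no scaling miR-15a-5p and miR-195-5p turned to 0.53 and 0.38. MiR-103a-3p turned in the authors' values (-0.13) and with own detected probes (-0.082), and miR-107 in these (-0.21 and -0.16) and with the 75th percentile (-0.061). With arrays left out, miR-16-5p ran from -0.097 to 0.13, miR-15a-5p from -0.36 to 0.019, miR-195-5p from -0.53 to -0.021 and miR-107 from -0.024 to 0.15. The median of the members was -0.29 in the authors' values and 0.61 with no scaling, where all tested probes had medians of -0.27 and 0.66. It was -0.29 on chip 1 too, where all tested probes had -0.028. The number of members above a ratio of 1.5 was 1. For normexp, the deposited values, own detected probes, the 75th percentile, quantile normalization and chip 1 this number was 0, and with no scaling 2. Leaving out arrays gave 0 to 1, with 0 without control array 3, TGF-β array 2 or TGF-β array 3. The number below 0.67 was 0, and 1 on chip 1 (miR-195-5p). It was also 1 with probes detected on at least 1 array or no filter, which admit miR-424-5p. The low ratio of miR-424-5p there rests on its single bright spot on control array 3. The number with no overlap was 0, and 3 on chip 1; leaving out arrays gave 0 to 3, with 3 without TGF-β array 3, and fewer arrays overlap less by construction. The within-array shifts are unaffected by a replicate block and nearly so by the authors' scaling, by construction, and chip as a block, chosen after seeing the data, repeats the values of chip 1. That of miR-15b-5p minus miR-16-5p was lowest with normexp, at 0.24. The cause of these changes was not tested. Signal over background limits miR-195-5p most, at 2.48 SD on TGF-β array 1.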
